A study of Mus musculus with 30 samples.

Results

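The 9 genes described here encode the kinases and adaptors that act directly below the B cell receptor and the pre-B cell receptor: Syk, Zap70, Blk, Lyn, Btk, Blnk, Pik3ap1, Plcg2 and Prkcb. They were chosen by symbol from the 24459 genes of the deposited RNA count tables. All 9 were listed once and passed the filter on low counts in every fit. The mice were C57BL/6, and Ikzf3, the gene of the zinc finger protein Aiolos, carried the G158R change on neither copy (Ikzf3+/+, WT), on 1 copy (Ikzf3+/m, het) or on both (Ikzf3m/m, homo). RNA was sequenced from bone marrow pre-pro B cells (sorted as B220+AA4.1+IgM-CD43+CD24-) and from the later pre-B cells (B220+AA4.1+IgM-CD43-CD24+), with 3 libraries for each genotype and stage and 18 in all. Ikaros and Aiolos binding was mapped by chromatin immunoprecipitation with sequencing (ChIP-seq) in WT and homo thymocytes and in pre-B cells raised in culture from B220+IgM- marrow over a Tst-4 stromal layer (with IL-7, Flt3L and SCF), with 1 library per antibody, genotype and cell type. The sources used here give neither the age of the mice nor whether replicates came from separate animals, so that p-values measure the spread between these libraries.

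When the receptor or its pre-B form is engaged, Src family kinases such as Lyn and Blk phosphorylate the signalling tails of CD79A and CD79B, and Syk docks there and is activated. Syk then phosphorylates the scaffold Blnk, on which Btk and phospholipase C gamma (Plcg2) come together. Plcg2 cleaves a membrane lipid into messengers that release calcium and recruit protein kinase C beta (Prkcb), while the adaptor Pik3ap1, also called BCAP, links the receptor to phosphoinositide 3-kinase. Zap70 is the paralogue of Syk that serves the T cell receptor and natural killer (NK) cell receptors.

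Levels are given as CPM, read counts scaled to one common library total, after TMM scaling of the libraries. CPM is not corrected for gene length, so each gene is compared only with itself. Where the libraries of a group are said to lie above, below or apart from another group, the values are only described. The share of all genes with such a separation is not given, so that separation alone sets no gene apart. Gene counts ranged from 1888871 in homo pre-B replicate 3, which stood apart from the rest, to 9048055 per library. Depth went with genotype among the pre-pro B libraries: the WT libraries held 5443344 to 6492192 counts and the homo libraries 8592557 to 9048055, while het replicate 1 held 4683715 and the other two het libraries 8771793 and 8395882. The counts of abundant genes grew less than these totals. Summed gene counts were 1.48 times higher in homo than in WT pre-pro B libraries, but counts of Actb were only 1.06 times higher, and the median log2 fold change in the decile of genes with the highest level, which holds Syk, Lyn, Blnk, Pik3ap1, Plcg2 and Prkcb, was −0.16. The homo differences of those 6 genes from WT are therefore also given from a fit that has library size as a covariate. In pre-pro B cells WT and homo depths did not overlap and varied little within each genotype. The covariate there leans on het replicate 1, so that calls kept or lost with it rest largely on that library. In pre-B cells it leans on homo replicate 3 and het replicate 2 (4265056 counts), as the other libraries held 5556696 to 6757040. A further fit leaves out these same 2 shallowest libraries, so that in pre-B cells the 2 fits are not separate checks. Y-linked genes were counted in het replicate 2 and in homo replicates 1 and 3 at both stages and in no WT library above 1 CPM, so that sex was unevenly spread over the genotypes as well.

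The 9 genes did not share one direction. In homo against WT pre-pro B cells, Zap70 rose 3.18-fold and 6 genes fell, Pik3ap1 most (1.45-fold), then Blnk, Lyn, Plcg2, Syk and Prkcb (1.21 to 1.30-fold), while Blk and Btk did not pass the test (edgeR quasi-likelihood test, Benjamini-Hochberg adjusted p under 0.05). These 7 of 9 stood against 22.4% of the 12188 genes tested, and the 6 that fell against 10.4%. With library size as a covariate, 2 of the 9 were called, Pik3ap1 and Plcg2 (1.75% of all genes), and with a term for sex only Zap70 (4.96%). Marker genes of other cell types moved with these falls. The summed level of 20 plasmacytoid dendritic cell genes was 8192 to 9172 CPM in WT pre-pro B libraries, 9548, 6357 and 6862 CPM in het replicates 1 to 3, and 6183 to 6406 CPM in homo. Of its defining genes, Siglech averaged 694 CPM in WT and 479 in homo, and Ccr9 577 and 432. Read counts of Siglech were 4033 to 4129 in WT and 4312 to 4390 in homo, so that they too grew less than the library totals. The summed level of 13 mature B and plasma cell genes was 1973 to 2194 CPM in WT, 2313, 1520.4 and 1643 in het replicates 1 to 3, and 1451 to 1465 in homo, whereas 18 myeloid genes summed to 351 to 373 CPM in WT, 358 to 454 in het and 475 to 579 in homo. The part of these cells in the falls was not tested. In homo against WT pre-B cells 1 of 9 genes passed, Pik3ap1, which fell 1.69-fold, against 15.9% of 11411 genes called in either direction and 8.45% called lower. Without the 2 shallowest pre-B libraries 6 of 9 were called, all lower (29.9% of all genes called, 15.4% lower). The fit with library size also called 6, of which 5 were lower (30.3% and 15.4%). The median log2 fold change of the 9 genes was −0.32 in pre-pro B cells and −0.12 in pre-B cells, against 0.01 and 0.02 over all genes tested.

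In het against WT pre-pro B cells, edgeR called 0 of the 9 genes (0.558% of all genes), with 5 under an unadjusted p of 0.05 (20.6% of all genes), while DESeq2 called 1 (3.86%) and limma after cyclic loess 0 (1.36%). Without het replicate 1, the shallowest pre-pro B library, 6 of 9 were called (15.4%). In het against WT pre-B cells Pik3ap1 alone passed, 1.33-fold lower (6.18% of all genes in either direction, 3.38% lower). Homo against het gave 0 calls by edgeR at both stages (0.0164% of genes in pre-pro B and 1.89% in pre-B cells), with 5 and 2 of the 9 under an unadjusted p of 0.05 (12.1% and 12.6% of genes). DESeq2 called 0 and 2 of the 9 (0.394% and 4.44%) and limma 0 and 0 (0.0492% and 1.80%). These comparisons share libraries with those against WT.

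The promoter windows of Pik3ap1, Zap70 and Syk are shown because each was overlapped by a region of a homo Ikaros ChIP-seq list, from pre-B cells or thymocytes. No WT region overlapped them, but at Syk a WT thymocyte region began just past the end of the window (chr13:52583488-52583736). They run from 250 bases before to 50 after the listed start and come from RefSeq on GRCm38.p6, for Pik3ap1 chr19:41385053-41385352 (minus strand), for Zap70 chr1:36761548-36761847 (plus strand) and for Syk chr13:52583187-52583486 (plus strand). Capitals mark GGGAA, the core of the Ikaros family motif, or TTCCC, the same core on the other strand.
Pik3ap1: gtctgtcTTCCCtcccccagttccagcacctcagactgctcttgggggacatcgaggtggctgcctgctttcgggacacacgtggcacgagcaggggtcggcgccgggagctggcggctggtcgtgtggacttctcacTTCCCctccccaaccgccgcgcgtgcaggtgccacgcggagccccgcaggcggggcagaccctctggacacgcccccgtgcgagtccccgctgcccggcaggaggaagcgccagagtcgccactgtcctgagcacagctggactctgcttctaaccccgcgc
Zap70: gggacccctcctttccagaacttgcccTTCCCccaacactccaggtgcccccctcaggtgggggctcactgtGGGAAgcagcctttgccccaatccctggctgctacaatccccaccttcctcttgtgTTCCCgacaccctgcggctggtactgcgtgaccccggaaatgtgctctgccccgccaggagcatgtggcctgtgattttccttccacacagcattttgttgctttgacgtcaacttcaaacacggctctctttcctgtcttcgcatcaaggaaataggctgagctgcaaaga
Syk: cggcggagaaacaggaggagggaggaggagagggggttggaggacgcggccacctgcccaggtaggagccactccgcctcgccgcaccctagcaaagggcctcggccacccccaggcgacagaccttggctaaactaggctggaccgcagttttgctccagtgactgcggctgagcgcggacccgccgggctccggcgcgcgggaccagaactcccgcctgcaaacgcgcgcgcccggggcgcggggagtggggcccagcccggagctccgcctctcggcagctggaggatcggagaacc
The first base of the core lies at −243 and −112 from the start in the Pik3ap1 window and at −223, −178 and −122 in the Zap70 window shown, and the Syk window shown holds none. Syk has 2 listed windows and Zap70 3, and those not shown were overlapped by no region. Among them the core lies at 4 in the Syk window and at −203 in a Zap70 window. Of 32851 listed promoter windows of the same length, 62.7% hold this core on either strand, so that its presence sets no gene apart. Of the 9 genes 7 matched the promoter table.

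**Figure D1:**
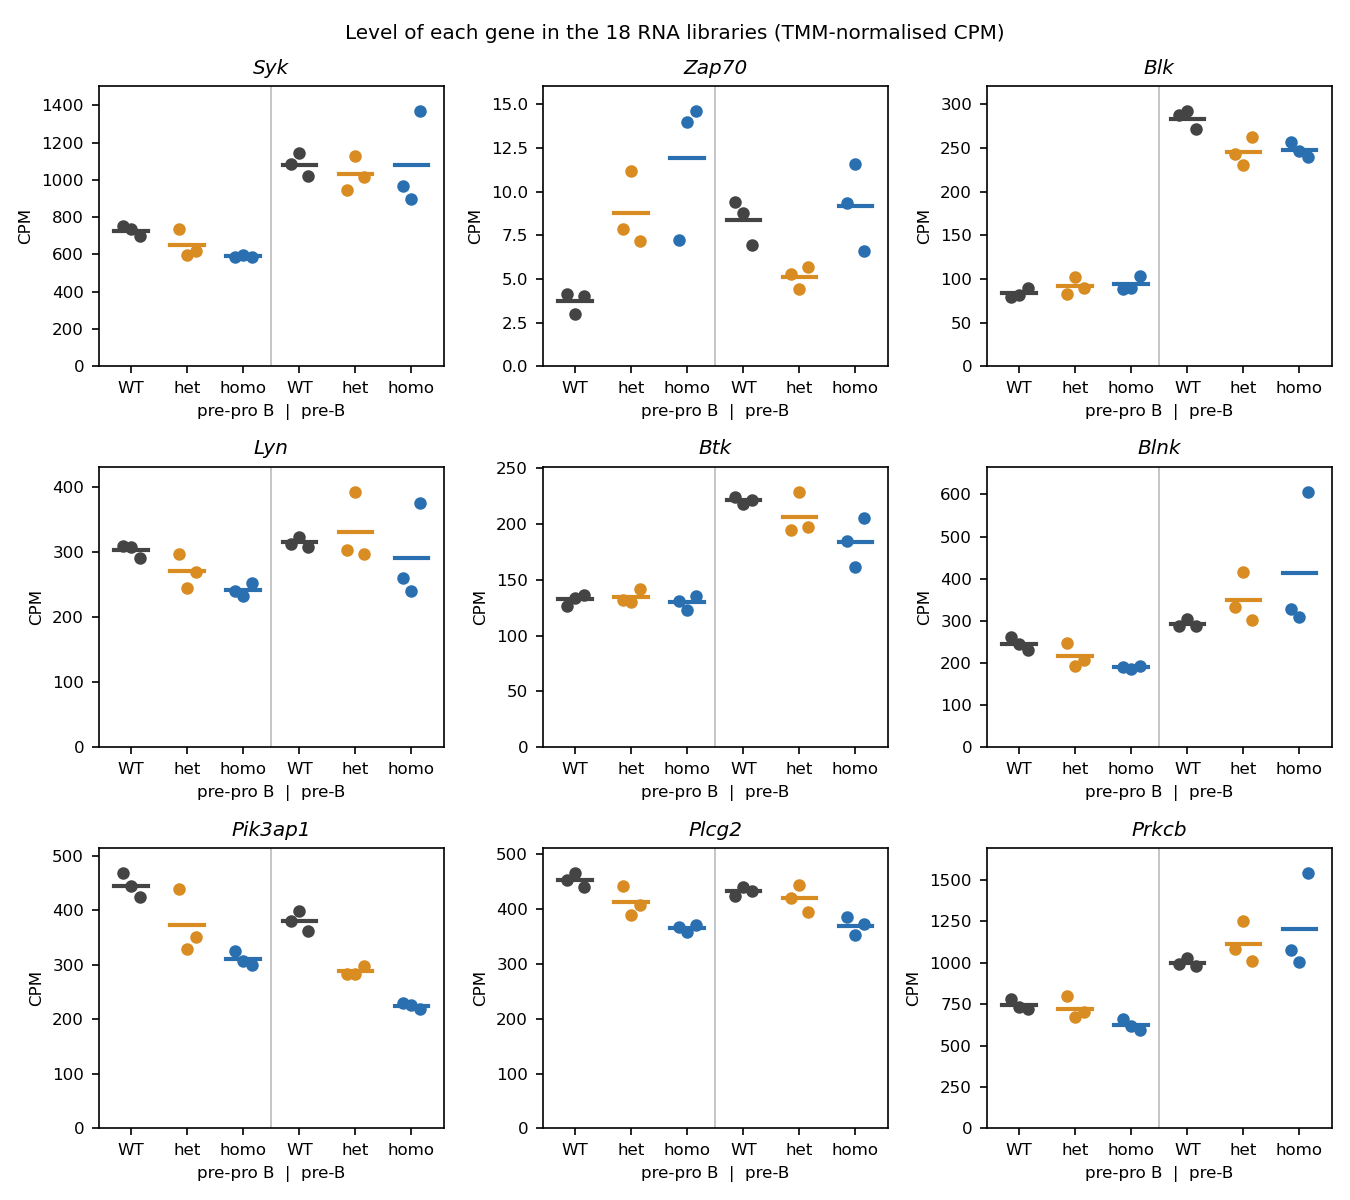
CPM (TMM-normalised) of each gene in the 18 RNA libraries, with 1 point per library, lines at the mean of 3 libraries, and axes that start at 0 and differ between panels. Pik3ap1 stepped down from WT to het to homo in pre-B cells with no overlap between genotypes. Syk, Lyn, Blnk and Prkcb had 1 homo pre-B library, replicate 3, well above the other 2.

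Syk, the kinase that reads the phosphorylated receptor tails, was lower in the 5 deepest pre-pro B libraries, which are homo and het, than in the other 4, the same split as in the dendritic and mature B marker sums above. At the pre-pro B stage Syk stood at 752, 735 and 697 CPM in WT replicates 1 to 3, at 736, 599 and 617 in het and at 584, 598 and 585 in homo. All 3 homo libraries lay below all WT libraries, and the shallow het replicate 1 lay among the WT libraries while the deeper het replicates lay close to homo. The fall in homo was log2 −0.32 ± 0.08 (SE), adjusted p = 0.0212. With library size as a covariate it was log2 −0.13 ± 0.05 (SE), adjusted p = 0.142, and the call was lost in 9 of 14 alternatives (adjusted p from 0.00260 to 0.335). Among these were the fits without WT replicate 1 or 2 and without any of the homo replicates (1 library left out in turn: log2 −0.36 to −0.29, adjusted p = 0.0414 to 0.110). In pre-B cells Syk stood at 1083, 1143 and 1019 CPM in WT, at 945, 1128 and 1015 in het and at 966, 899 and 1366 in homo, so that the groups overlapped and the shallow homo replicate 3 was highest. The difference of homo from WT was log2 −0.01 ± 0.17 (SE), adjusted p = 0.984, and without the 2 shallowest libraries log2 −0.22 ± 0.06 (SE), adjusted p = 0.0240 and with library size as a covariate log2 −0.19 ± 0.06 (SE), adjusted p = 0.0246 (over 15 alternatives adjusted p from 0.0240 to 0.991). In all 3 genotypes Syk was higher in pre-B than in pre-pro B cells, 1.49-fold in WT, 1.58-fold in het and 1.83-fold in homo (adjusted p = 0.00108, 0.000278 and 1.86e-05). The rise in homo was log2 0.87 and ran from log2 0.43 to 0.98 over 15 alternatives, each of them called. In WT the rise ran from log2 0.44 to 0.61 and in het from log2 0.41 to 0.76. Homo and WT did not differ in this rise past the test (log2 0.30 ± 0.19 (SE), adjusted p = 0.332). With library size as a covariate that difference was log2 −0.07.

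Zap70 was counted at a low level throughout, with 11 to 134 reads per library. At the earlier stage Zap70 stood at 4.13, 2.99 and 4.04 CPM in WT, at 7.86, 11.2 and 7.18 in het and at 7.24, 14.0 and 14.6 in homo. Every het and homo library was above every WT library, and het and homo overlapped. Zap70 rose in homo (log2 1.67 ± 0.31 (SE), adjusted p = 0.00558), and its difference in het missed the threshold (log2 1.24 ± 0.33 (SE), adjusted p = 0.0796). The homo call held in 13 of 14 alternatives and was lost with library size as a covariate (log2 1.55 ± 0.45 (SE), adjusted p = 0.0999), where the size of the difference was much the same (adjusted p over the alternatives from 2.52e-05 to 0.0999). The order was another one in pre-B cells, where Zap70 stood at 9.42, 8.77 and 6.92 CPM in WT, at 5.29, 4.43 and 5.66 in het and at 9.34, 11.6 and 6.60 in homo. The het libraries lay below those of both other genotypes, with log2 −0.69 ± 0.24 (SE), adjusted p = 0.134 against WT, and homo overlapped WT (log2 0.21 ± 0.23 (SE), adjusted p = 0.590). Zap70 was 2.24-fold higher in pre-B than in pre-pro B cells in WT (adjusted p = 0.00251) and 1.70-fold lower in het (adjusted p = 0.0228), a call lost without het replicate 2 of either stage (1 library left out in turn: log2 −0.92 to −0.54, adjusted p = 0.0153 to 0.138). In homo the stage difference was log2 −0.29 (adjusted p = 0.322).

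Genes of NK and innate lymphoid cells moved with Zap70 in pre-pro B cells. The summed level of 17 such genes was 265.2 to 279 CPM in the WT libraries, 361 to 550.5 in het and 463 to 726 in homo. Its defining genes Ncr1, Klrb1c and Klrk1, which encode NK cell receptors, averaged 1.00, 3.43 and 15.9 CPM in WT and 18.1, 18.4 and 45.7 in homo pre-pro B cells. The sum in pre-B cells was 18.7 to 19.6 CPM in WT, 18.8 to 29.8 in het and 36.9 to 46.2 in homo. In the WT pre-B libraries Ncr1 and Klrk1 were at 0, Klrb1c averaged 1.79 CPM and Zap70 stood at 6.92 to 9.42 CPM. The T lineage list, a lineage that also uses Zap70, went the other way in pre-pro B cells, with 800.4 to 906 CPM in WT and 621 to 662 in homo. Its defining genes had few reads and were split. Cd3e averaged 0.645 CPM in WT and 0.0736 in homo, but Cd3d 1.06 and 1.24 and Cd3g 0.769 and 1.51. The part of these cells in the Zap70 values was not tested, and in bulk samples more cells of a type and more RNA per cell cannot be told apart.

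**Figure D2:**
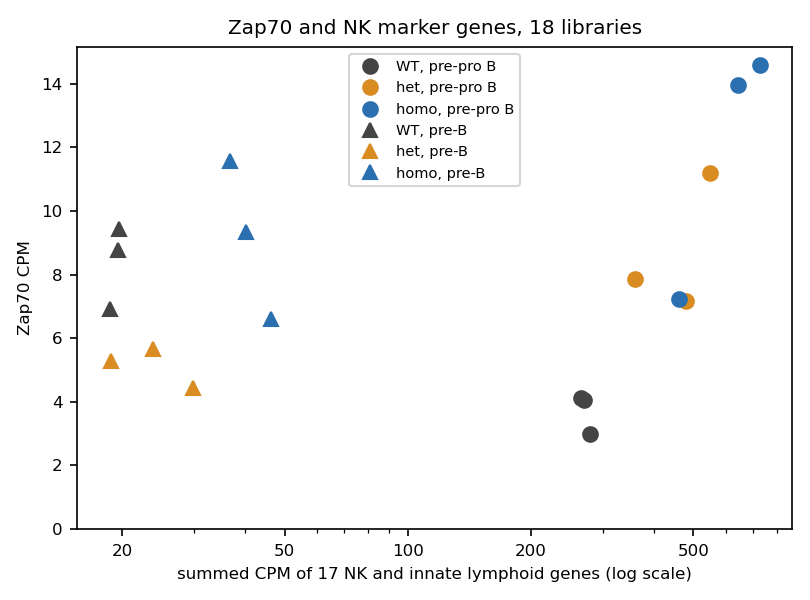
Zap70 level (CPM) against the summed CPM of 17 NK and innate lymphoid genes on a log axis, 1 point per library, circles for pre-pro B and triangles for pre-B cells. Both values of the pre-pro B libraries were lowest in the 3 WT libraries. In pre-B cells the het libraries had the lowest Zap70 values, at marker sums of 18.8, 29.8 and 23.8 CPM against 18.7 to 19.6 CPM in WT.

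Blk, a Src family kinase known chiefly from B cells, had the largest stage difference of the 9. Blk stood at 79.3, 81.2 and 89.9 CPM in WT, at 83.0, 102 and 90.2 in het and at 88.6, 89.7 and 104 in homo pre-pro B cells. Its pre-B level stood at 288, 292 and 271 CPM in WT, at 243, 230.4 and 262 in het and at 257, 247 and 239.5 in homo. The stages did not overlap in any genotype. The rise to pre-B cells was 3.39-fold in WT, 2.66-fold in het and 2.64-fold in homo (adjusted p = 2.27e-11, 3.81e-10 and 4.80e-10). Within pre-B cells both mutant genotypes lay below all WT libraries without passing the test, by log2 −0.22 in het (adjusted p = 0.268) and −0.19 in homo (adjusted p = 0.227). At the pre-pro B stage the groups overlapped, with a homo difference of log2 0.16 ± 0.09 (SE), adjusted p = 0.203.

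Lyn, the Src family kinase that starts receptor signalling and also phosphorylates inhibitory receptors, had no stage difference past the test in any genotype (log2 0.06 in WT, 0.29 in het and 0.26 in homo, adjusted p = 0.739, 0.0732 and 0.109). Among pre-pro B libraries Lyn stood at 309.7, 308 and 291 CPM in WT, at 297, 244 and 269 in het and at 240.4, 232 and 252 in homo. The homo libraries lay below the WT libraries, with log2 −0.34 ± 0.07 (SE), adjusted p = 0.00714, or log2 −0.19 ± 0.06 (SE), adjusted p = 0.110 with library size as a covariate. The adjusted p of this fall was 0.000920 to 0.167 in the 14 alternatives. In pre-B cells Lyn stood at 313, 323 and 308 CPM in WT, at 302, 391 and 296 in het and at 259.8, 239.6 and 375 in homo, and the highest het and homo values were those of the 2 shallowest libraries. The homo difference there was log2 −0.12 ± 0.18 (SE), adjusted p = 0.692, but log2 −0.34 ± 0.06 (SE), adjusted p = 0.000775 without those libraries and log2 −0.32 ± 0.06 (SE), adjusted p = 0.00135 with the covariate (15 alternatives, adjusted p from 0.000775 to 0.996).

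Btk, the Tec family kinase that activates Plcg2, was the member whose level in pre-pro B cells differed least from WT in het and in homo (edgeR fit without covariates). It stood there at 127, 134 and 137 CPM in WT, at 132, 129.7 and 142 in het and at 131, 123 and 135 in homo, and a homo difference of log2 −0.04 ± 0.05 (SE), adjusted p = 0.622 was measured. In pre-B cells Btk stood at 224, 217 and 221 CPM in WT, at 194, 228 and 197 in het and at 184, 161 and 205 in homo, all 3 homo libraries being below all 3 WT libraries. That difference was log2 −0.27 ± 0.11 (SE), adjusted p = 0.149, and it was called without the 2 shallowest libraries (log2 −0.36 ± 0.06 (SE), adjusted p = 0.00138), with library size as a covariate and with a term for sex (adjusted p over 15 alternatives from 0.00138 to 0.324). Btk rose from pre-pro B to pre-B cells 1.67-fold in WT, 1.53-fold in het and 1.41-fold in homo (adjusted p = 1.25e-06, 1.12e-05 and 0.000131).

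Blnk, the scaffold on which Btk and Plcg2 meet, was lowest in the homo libraries among pre-pro B cells and above WT in all homo libraries among pre-B cells. Blnk stood at 261, 245 and 231 CPM in WT, at 248, 194 and 208 in het and at 191, 186 and 192 in homo pre-pro B cells. WT and homo did not overlap, with log2 −0.38 ± 0.08 (SE), adjusted p = 0.00865, and log2 −0.17 ± 0.05 (SE), adjusted p = 0.113 with library size as a covariate (14 alternatives, adjusted p from 0.00136 to 0.264). Of the fits that leave out 1 library, the one without WT replicate 1 lost the call (over these fits log2 −0.44 to −0.34, adjusted p = 0.0133 to 0.0567). In pre-B cells the values were at 288, 304 and 289 CPM in WT, at 332, 417 and 302 in het and at 328, 310.2 and 605 in homo. The homo libraries lay above WT, and the value of homo replicate 3, the library of 1888871 counts, was far above the others. The homo difference was log2 0.49 ± 0.24 (SE), adjusted p = 0.207, log2 0.12 ± 0.06 (SE), adjusted p = 0.177 without the 2 shallowest libraries and log2 0.15 ± 0.05 (SE), adjusted p = 0.0459 with library size as a covariate (15 alternatives, adjusted p from 0.0459 to 0.807). From pre-pro B to pre-B cells Blnk rose 1.62-fold in het and 2.16-fold in homo (adjusted p = 0.00329 and 5.47e-05), and its difference in WT was log2 0.26 ± 0.19 (SE), adjusted p = 0.235. The rise in homo was log2 1.11 and ran from log2 0.50 to 1.28 over 15 alternatives, each of them called.

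Pik3ap1, the adaptor that brings phosphoinositide 3-kinase to the receptor, was lower in homo than in WT cells at both stages. In pre-B cells Pik3ap1 stood at 381, 398 and 362 CPM in WT, at 284, 283 and 297 in het and at 229, 226 and 219 in homo. The 3 genotypes did not overlap, and het lay between the others in all 3 libraries. Unlike Syk, Lyn, Blnk and Prkcb, Pik3ap1 was no higher in homo replicate 3 than in the other homo libraries. The fall was log2 −0.76 ± 0.09 (SE), adjusted p = 0.000494 in homo and log2 −0.41 ± 0.09 (SE), adjusted p = 0.0295 in het, and homo against het gave log2 −0.35 ± 0.09 (SE), adjusted p = 0.110. With library size as a covariate the homo value was log2 −0.74 ± 0.06 (SE), adjusted p = 7.00e-07. The homo call held in all 15 alternatives (log2 −0.85 to −0.72, adjusted p from 3.01e-18 to 0.00629). The het call was lost in 7 of 15 alternatives, which kept its direction (log2 −0.46 to −0.37, adjusted p from 6.84e-06 to 0.174), among them each of the 3 fits without a WT library and those without het replicate 1 or 2. Without the 2 shallowest libraries homo against het was called, with log2 −0.35 ± 0.06 (SE), adjusted p = 0.00859.

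The pre-pro B level of Pik3ap1 stood at 468, 445 and 424 CPM in WT, at 439, 329 and 351 in het and at 325, 308 and 299 in homo. All homo libraries lay below all WT libraries, and het replicate 1 was close to WT while het replicates 2 and 3 were close to homo. The fall in homo was log2 −0.53 ± 0.09 (SE), adjusted p = 0.00456. With library size as a covariate it was log2 −0.28 ± 0.05 (SE), adjusted p = 0.0351. The het difference was log2 −0.27 ± 0.09 (SE), adjusted p = 0.141, and log2 −0.18 ± 0.04 (SE), adjusted p = 0.0865 with the covariate. With a term for sex the homo difference was log2 −0.45 ± 0.11 (SE), adjusted p = 0.0505, the 1 alternative of 14 in which the call was lost (adjusted p from 1.98e-05 to 0.0505). Pik3ap1 was the 1 member called lower in pre-B than in pre-pro B cells in all 3 genotypes, by log2 −0.23 in WT, −0.37 in het and −0.46 in homo (adjusted p = 0.0447, 0.00235 and 0.000384). The call in WT was lost in 6 of 14 alternatives, 5 of which leave out WT pre-pro B replicate 1 or 2 or a WT pre-B replicate.

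**Figure D3:**
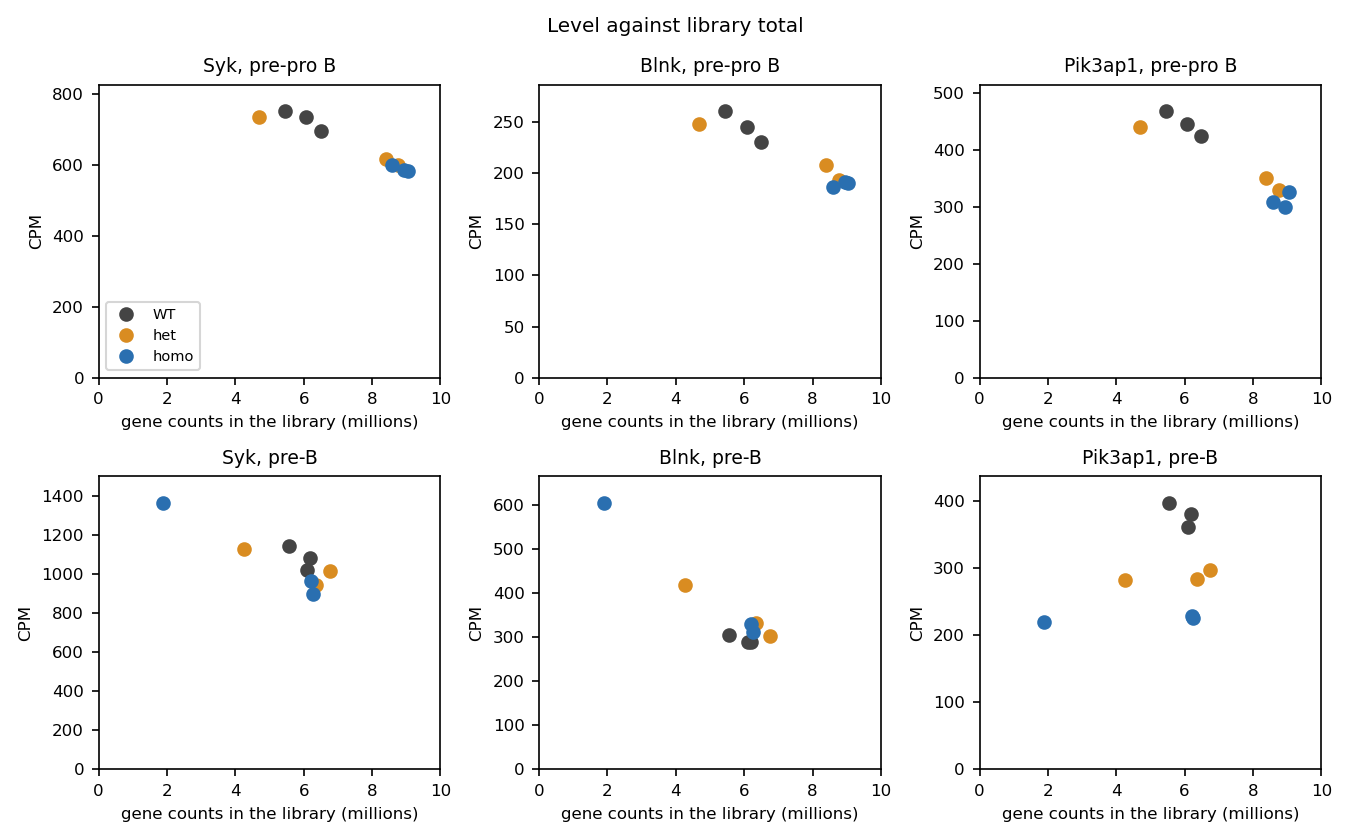
CPM of Syk, Blnk and Pik3ap1 against the summed gene counts of each library, pre-pro B cells above and pre-B cells below, 1 point per library, axes from 0. The pre-pro B level of all 3 genes was lower in the 5 deepest libraries than in the other 4. In pre-B cells Syk and Blnk were highest in the shallowest library, and the Pik3ap1 values of the genotypes did not overlap.

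Plcg2, the phospholipase below Btk and Blnk, stood at 453, 465 and 441 CPM in WT, at 442, 389.7 and 407 in het and at 367, 358 and 372 in homo pre-pro B cells. Homo lay below WT in every library, with log2 −0.32 ± 0.06 (SE), adjusted p = 0.00481, and with library size as a covariate the call held (log2 −0.22 ± 0.04 (SE), adjusted p = 0.0394). The one alternative of 14 in which the call was lost was the term for sex (log2 −0.29 ± 0.08 (SE), adjusted p = 0.0515). Its adjusted p was 4.05e-05 to 0.0515 over these fits. In pre-B cells Plcg2 stood at 425, 440.0 and 433 CPM in WT, at 421, 444 and 396 in het and at 385, 352 and 373 in homo, again with homo below WT in every library. The test was missed in the fit of all 9 libraries (log2 −0.22 ± 0.10 (SE), adjusted p = 0.176) and passed without the 2 shallowest (log2 −0.24 ± 0.06 (SE), adjusted p = 0.00778) or with the covariate (log2 −0.24 ± 0.06 (SE), adjusted p = 0.00758), and over 15 alternatives its adjusted p was 0.00758 to 0.396. No stage difference of Plcg2 passed the test in a genotype (log2 −0.07 in WT, 0.03 in het and 0.02 in homo, adjusted p = 0.459, 0.784 and 0.856).

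Prkcb, the protein kinase C isoform that carries the receptor signal to NF-kB, stood at 783, 733 and 722 CPM in WT, at 799, 671 and 699 in het and at 663, 615 and 594 in homo pre-pro B cells. The homo libraries lay below WT (log2 −0.27 ± 0.08 (SE), adjusted p = 0.0377), but the call was lost in 9 of 14 alternatives, including library size as a covariate (log2 −0.11 ± 0.06 (SE), adjusted p = 0.317; adjusted p over all 14 from 0.00927 to 0.981). It was also lost without any of the WT replicates and without homo replicate 2 or 3 (1 library left out in turn: log2 −0.31 to −0.23, adjusted p = 0.0492 to 0.175). In pre-B cells the values were at 994, 1026 and 977 CPM in WT, at 1081, 1252 and 1010.4 in het and at 1075, 1004 and 1539 in homo, overlapping between genotypes, with the 2 shallowest libraries highest. The homo difference there was log2 0.27 ± 0.17 (SE), adjusted p = 0.338, but log2 0.05 ± 0.06 (SE), adjusted p = 0.547 without those libraries and log2 0.08 ± 0.05 (SE), adjusted p = 0.307 with the covariate (1 library left out in turn: log2 0.06 to 0.38, adjusted p = 0.182 to 0.798). Prkcb rose from pre-pro B to pre-B cells 1.34-fold in WT, 1.54-fold in het and 1.93-fold in homo (adjusted p = 0.0112, 0.000569 and 8.59e-06). The rise in homo was log2 0.95 and ran from log2 0.50 to 1.06 over 15 alternatives, each of them called. Homo and WT did not differ in this rise past the test (log2 0.53 ± 0.19 (SE), adjusted p = 0.0768), though 4 of 21 alternatives called it.

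**Figure D4:**
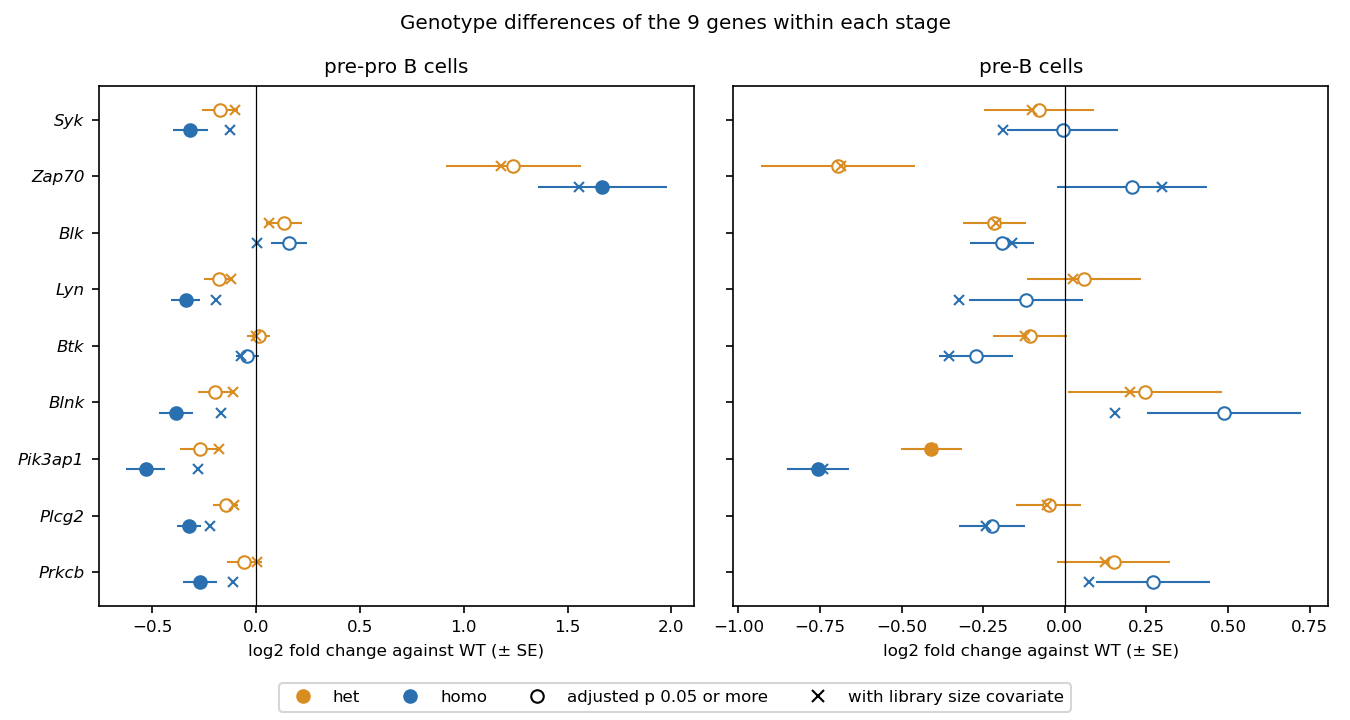
Log2 fold change against WT (± SE) of the 9 genes in pre-pro B and pre-B cells, het in orange and homo in blue, with filled circles at an adjusted p under 0.05 and crosses for the same value with library size as a covariate. In pre-pro B cells the homo values of Syk, Lyn, Blnk, Pik3ap1, Plcg2 and Prkcb moved toward 0 with the covariate. In pre-B cells the 2 Pik3ap1 values changed little.

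The stage comparison called 6 of 9 genes in WT, 5 higher and 1 lower in pre-B cells (64.3% of all genes, 31.0% higher and 33.3% lower). In het it called 7, of which 5 were higher and 2 lower (68.1%, 32.4% and 35.8%), and in homo 6, of which 5 were higher and 1 lower (69.1%, 32.7% and 36.4%). The share called was near that of all genes in each genotype. The median log2 difference of the 9 genes was 0.42, 0.61 and 0.49, against −0.01, −0.03 and −0.05 over all genes tested. Depth went with stage in homo, with 8592557 to 9048055 counts in pre-pro B and 1888871 to 6257527 in pre-B libraries. In WT the stages were closer in depth, with 5443344 to 6492192 and 5556696 to 6187816 counts. Markers of other cell types differed between the 2 sorted populations: the summed level of the dendritic list was 1399 to 1499.9 CPM in WT pre-B libraries, below the pre-pro B values given above. Of its defining genes, Siglech averaged 0.327 CPM there and Ccr9 1.87 CPM. The summed level of 10 B lineage genes, among them Blnk, was 489 to 562 CPM in WT pre-pro B cells and 2476 to 2607 CPM in WT pre-B cells. The part of these cells in the values of the 9 genes was not tested.

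Whether a genotype effect differed between the stages was tested in the fit of all 18 libraries. Of the 9 genes 2 were called for homo against WT (14.5% of 12440 genes) and 1 for het against WT (5.66%). The homo effect on Zap70 was lower in pre-B than in pre-pro B cells, with log2 −1.46 ± 0.40 (SE), adjusted p = 0.0182, and so was the het effect, with log2 −1.93 ± 0.41 (SE), adjusted p = 0.00848, which was called in all 21 alternatives (log2 −2.08 to −1.68, adjusted p from 0.000568 to 0.0331). The Blnk effect of homo was higher in pre-B cells, with log2 0.85 ± 0.26 (SE), adjusted p = 0.0379. That value was log2 0.25 ± 0.09 (SE), adjusted p = 0.0682 with library size as a covariate, and stood at log2 0.49 ± 0.11 (SE), adjusted p = 0.00313 without the 2 shallowest libraries. It was called in 11 of 21 alternatives (adjusted p from 0.00313 to 0.0886) and lost without any 1 of the WT libraries other than pre-pro B replicate 3 and without any 1 of the homo pre-pro B libraries (log2 0.49 to 1.02, adjusted p = 0.0102 to 0.0886). The Zap70 value in homo was called in 17 of 21 (adjusted p from 0.00221 to 0.0651). It was lost with library size as a covariate (log2 −1.20 ± 0.42 (SE), adjusted p = 0.0651), and without WT pre-pro B replicate 2, homo pre-pro B replicate 3 or WT pre-B replicate 1 (1 library left out in turn: log2 −1.72 to −1.29, adjusted p = 0.00221 to 0.0582). With that covariate the 1 gene called for homo was Btk (log2 −0.37 ± 0.12 (SE), adjusted p = 0.0353). For Pik3ap1 the stages did not differ past the threshold in homo (log2 −0.24 ± 0.14 (SE), adjusted p = 0.273) or in het (log2 −0.14 ± 0.13 (SE), adjusted p = 0.650). Without the 2 shallowest libraries 5 of 9 genes were called for homo (22.8% of all genes), the other 3 being Btk (log2 −0.32), Blk (−0.34) and Prkcb (0.32; adjusted p = 0.0132, 0.0393 and 0.0379).

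Around the 9 genes, a list of 76 further genes of the pathway was examined, all of them listed in the files. In homo against WT pre-pro B cells 11 of 74 tested rose and 28 fell, while of all 12188 genes 1467 rose and 1263 (10.4%) fell. The median log2 fold change of the 74 was −0.04. When library size was a covariate, 0 of the 74 rose and 3 fell (1.75% of all genes called), and with a term for sex 3 rose and 1 fell (4.96%). The largest rises were those of Txk, a Tec family kinase of T and NK cells (log2 3.22 ± 0.56 (SE), adjusted p = 0.00431), Rasgrp1, a Ras exchange factor (log2 2.34 ± 0.42 (SE), adjusted p = 0.00559), Prkcq, the protein kinase C isoform of T cells (log2 1.58 ± 0.44 (SE), adjusted p = 0.0345), and Dok2, an inhibitory adaptor (log2 1.42 ± 0.35 (SE), adjusted p = 0.0213). As they were picked as the largest rises, they share the direction of Zap70 by choice. Among the largest falls were those of Prkcd, another protein kinase C (log2 −0.50 ± 0.10 (SE), adjusted p = 0.00729), Ptpn6, the phosphatase SHP-1 (log2 −0.48 ± 0.12 (SE), adjusted p = 0.0180), and the adaptor Sh3bp2 (log2 −0.44 ± 0.10 (SE), adjusted p = 0.0103). By group, the other Src family and Csk kinases had 0 rises and 5 falls of 8, the other Tec kinases 2 and 0 of 3, the other adaptors 3 and 5 of 14, and the phosphoinositide 3-kinase, phospholipase and Vav genes 0 and 4 of 8. The calcium, protein kinase C, Ras and NF-kB arm had 2 rises and 8 falls of 16, and the inhibitory receptors and phosphatases 4 and 5 of 16.

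In homo against WT pre-B cells 9 of 69 pathway genes tested rose and 18 fell (15.9% of all genes called, 8.45% lower), with a median log2 of −0.17. The fit with library size had 12 rises and 25 falls (30.3%). Prkcq (log2 1.85 ± 0.19 (SE), adjusted p = 0.000140), the scaffold Bank1 (log2 1.12 ± 0.28 (SE), adjusted p = 0.0230), the Src family kinase Fyn (log2 0.99 ± 0.09 (SE), adjusted p = 7.80e-05) and the inhibitory receptor Cd22 (log2 0.81 ± 0.11 (SE), adjusted p = 0.000667) rose most. Rasgrp1 (log2 −1.98 ± 0.21 (SE), adjusted p = 0.000179) and the adaptors Gab1 (log2 −1.42 ± 0.19 (SE), adjusted p = 0.000715) and Lcp2 (log2 −1.27 ± 0.22 (SE), adjusted p = 0.00298), the last being the T cell and myeloid counterpart of Blnk, were among those that fell most. Rasgrp1 thus rose in homo pre-pro B cells, from 1.80 to 9.25 CPM on average, and fell in homo pre-B cells, from 249 to 62.9 CPM, with a difference between the stages past the test (log2 −4.32 ± 0.47 (SE), adjusted p = 6.38e-06). In het against WT pre-B cells 7 of 69 rose and 7 fell (6.18% of all genes called), and Prkcq (log2 1.36 ± 0.19 (SE), adjusted p = 0.00244), Bank1 (log2 1.23 ± 0.28 (SE), adjusted p = 0.0284), Gab1 (log2 −1.35 ± 0.18 (SE), adjusted p = 0.00236) and Lcp2 (log2 −0.79 ± 0.20 (SE), adjusted p = 0.0461) were called there in the direction seen in homo. Of the pre-B and B cell receptor and co-receptor genes, 1 of 9 fell in homo pre-pro B cells and 1 of 10 rose in homo pre-B cells. From pre-pro B to pre-B cells in WT, 8 of these 10 rose and 1 fell (31.0% and 33.3% of all genes), and Cd81 (log2 3.29 ± 0.22 (SE), adjusted p = 3.15e-10) was among the largest rises.

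The genes whose levels ran most closely with a member differed by stage. Over the 9 pre-B libraries, which share their differences in depth, Pik3ap1 was most like Fam129c (Pearson r 0.995), Col5a3 (0.992) and Myl4 (0.991). Prkcb was most like Blnk, another of the 9 (0.997), and Blnk was most like Ebf1, the B cell transcription factor (0.998). Over the 9 pre-pro B libraries Zap70 was most like Arap3 (0.982), Tbx21, the NK and T cell transcription factor T-bet (0.982), and Palb2 (0.982). Over all 18 libraries Zap70 was most like Sh2d2a (0.891), Blk most like 2310008N11Rik (0.992), and Syk most like Pafah1b3 (0.989). These are descriptions across libraries that share genotype and stage.

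The ChIP-seq region lists were read at the same 9 genes, with 1 library per list and hence no test. In pre-B cells 6 of 9 genes had a region of the WT Ikaros list within 10000 bases of the gene (11.2% of 21887 protein-coding genes) and 8 of 9 a region of the homo Ikaros list (24.0%). In thymocytes the counts were 4 (11.9%) and 5 (30.7%). The homo Ikaros lists were longer, with 8609 regions against 3683 in pre-B cells and 8221 against 3572 in thymocytes. All 4 Aiolos lists had 0 of 9 (0.946% and 0.0594% of genes in WT and homo pre-B cells, 0.0503% and 0.503% in thymocytes), and held 431, 24, 25 and 184 regions. The 9 genes span 21024 to 345299 bases against a median of 17169 for protein-coding genes, and a longer gene has more room for a region.

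Of the regions at these genes in the WT pre-B Ikaros list, those at Plcg2, Zap70 and Lyn had the highest fold. The fold given here is the authors' own value for a region, and coordinates are those of the mm10 build. Zap70 had a region inside the gene in all 4 Ikaros lists, at chr1:36766880-36767636 in WT pre-B cells (fold 11.1) and overlapping it in homo pre-B cells (10.2), WT thymocytes (9.66) and homo thymocytes (8.61), centred 2594 to 2768 bases downstream of a listed start. Plcg2 had a region centred at −904 from its start in WT pre-B cells (chr8:117497013-117497729, fold 11.2) and one at −899 in homo (fold 11.4), and regions of fold 3.50 and 3.59 in the WT and homo thymocyte lists. Lyn (chr4:3724439-3725077, fold 9.22 in WT and 10.4 in homo), Blnk (chr19:40970050-40970472, 8.40 and 7.70) and Prkcb (chr7:122633060-122633409, 8.88 and 7.51) had a region within the gene, and Btk one just beyond its end (4.95 and 5.18), in both pre-B lists. Blk had a region in none of the lists.

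Pik3ap1, the gene lower in homo at both stages, had no region in the WT lists and 2 in each homo Ikaros list. In homo pre-B cells they lay just before the start of the gene, inside and beyond the promoter window (chr19:41385109-41385449, centred at −177, fold 3.50, −log10 q 2.28) and far inside it (chr19:41275858-41276474, fold 4.73). The region before the start was weak for its list, in which 8.21% of regions had a lower fold. In homo thymocytes a region of fold 3.44 was centred at −18. Among protein-coding genes with a listed promoter, 3.37% had a homo pre-B Ikaros region over the promoter window and 0.457% a WT one, 16.0% and 2.32% in thymocytes. In homo thymocytes the windows of Zap70 (fold 6.10) and Syk (4.71) were overlapped as well. The Syk region also overlapped the WT thymocyte region that began just past its window (fold 4.04). Regions of the homo pre-B list that overlapped no WT pre-B region were not particular to Pik3ap1. Syk had one (chr13:52579201-52579458, centred at −4108, fold 4.63, −log10 q 5.43) and no region in the WT pre-B list. Plcg2 (fold 3.42) and Prkcb (fold 4.76) each had one beside a region present in both pre-B lists.

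**Figure D5:**
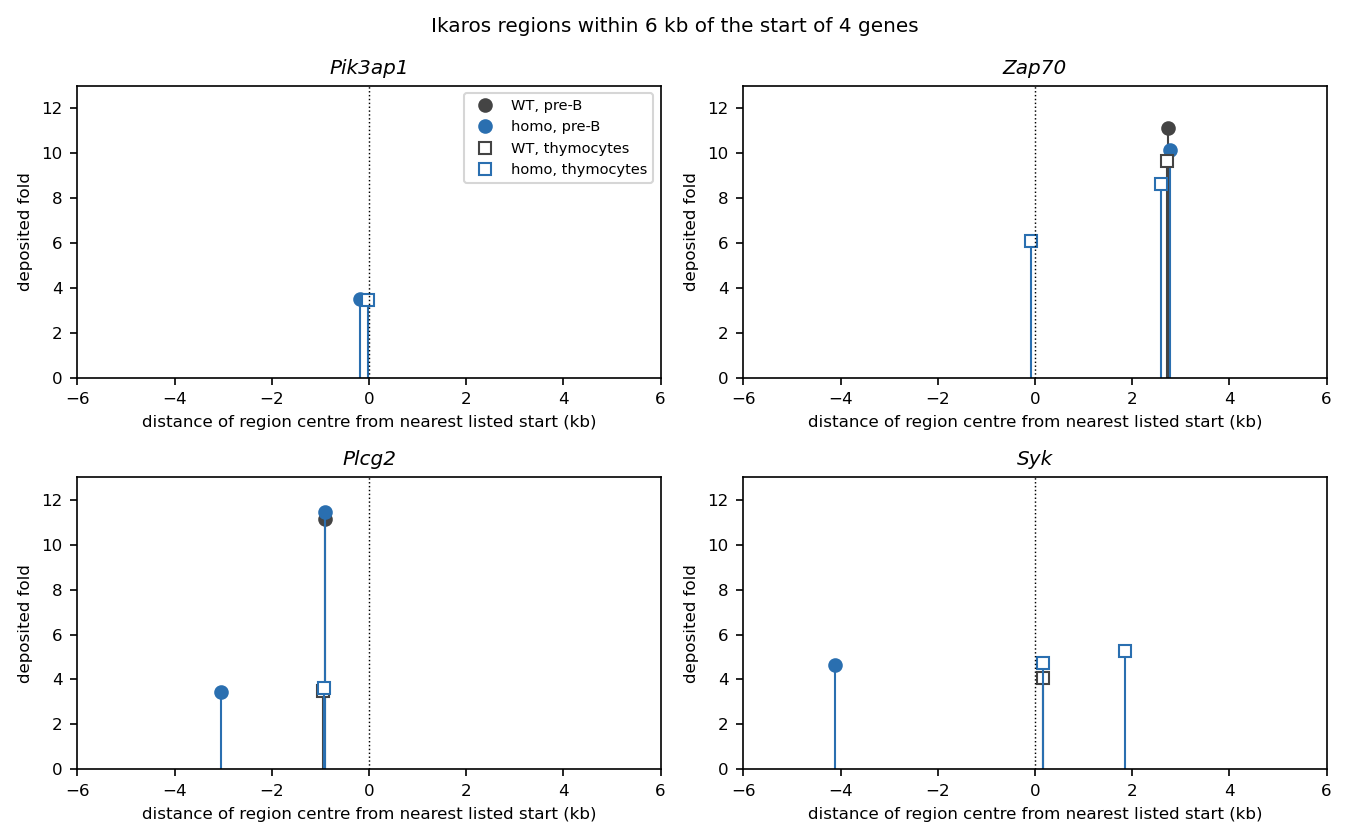
Deposited fold of each Ikaros region within 6000 bases of a listed start against the distance of its centre from the nearest listed start (kb) for Pik3ap1, Zap70, Plcg2 and Syk, circles for pre-B cells, squares for thymocytes, WT in grey and homo in blue, 1 library per list. At Pik3ap1 the regions near the start come from homo lists, at Syk those near the start come from WT and homo thymocytes, and at Zap70 and Plcg2 the highest regions recur in WT and homo. Further from the Syk start, centred at −4108 bases, lies a homo pre-B region.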

How the data were processed

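The authors deposited read counts per gene symbol for 18 RNA libraries. Per the submitters' processing notes MACS2 2.1.1, HISAT2 2.1.0 and STAR 2.7.0 were used, in roles not named there, with mm10 as the build. The program that counted reads is not given in these sources. The 5 entries that name no gene entered neither library sizes nor tests, and 29.8% to 40.1% of the reads of a library fell in no gene. Since counting by strand is not stated either, reads of a gene and of an overlapping antisense gene cannot be told apart. Each deposited region list gives a score, a fold (the ratio of signal over background as the authors' caller gave it) and p and q as −log10 values per region. The score repeats the −log10 q-value times 10 without decimals in all but 1 of 24749 deposited regions.

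Counts were fitted with edgeR 4.0.16 in R 4.3.3 (filterByExpr by group, TMM, robust quasi-likelihood F test, two-sided), with Benjamini-Hochberg adjustment over all genes tested and calls under 0.05. Genotypes were compared in the 9 libraries of a stage, stages and their differences in all 18. Biological coefficients of variation were 8.13% at the pre-pro B stage, 16.3% at the pre-B stage and 12.4% over both. The code was tested on simulated data with 200 changed genes. Alternatives were DESeq2 1.42.0, RLE factors, no filter, a replicate block, library size or sex as a covariate, other sets of libraries and each library left out. Cyclic loess with limma 3.58.1 and the fit without the 2 shallowest pre-B libraries (het replicate 2 and homo replicate 3) were chosen after seeing the data. Likeness is the Pearson r of log2 CPM (prior count 2), the 3 nearest genes counted over all 18 libraries or those of a stage.

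The 9 genes, the pathway list and the marker lists were chosen with earlier results of these data known. All 9 genes are named in every comparison. Of the pathway list, up to 4 called genes per direction and comparison could be named, those with the largest log2 fold change. Some of these are not reported here. Promoters and gene positions came from RefSeq on GRCm38.p6, the assembly of mm10. The 76 pathway genes matched by symbol. No library pair within a group was identical or within sampling noise (smallest chi-square per degree of freedom 1.44). Whether replicate numbers pair the libraries is not settled. Deviations of same-numbered libraries from their group means correlated at −0.56 to 0.25 over 45 pairs, 8 of them above 0.1. Between the stages of a genotype, where animals could be shared, they correlated at 0.067, 0.061 and 0.113 in WT. The values were 0.116, 0.144 and −0.052 in het and 0.105, 0.247 and 0.036 in homo. Y-linked genes were counted under the same replicate numbers at both stages.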

Additional observations from a re-analysis of the deposited data

Results flagged for a closer look

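In 3 cases the effect of a genotype on 1 of the 9 genes differed between the stages by a direct test of the difference (edgeR quasi-likelihood test of the interaction, adjusted over 12440 genes). Zap70 had a homo effect that was lower in pre-B than in pre-pro B cells by log2 −1.46 ± 0.40 (SE), adjusted p = 0.0182, and a het effect lower by log2 −1.93 ± 0.41 (SE), adjusted p = 0.00848. These share their WT libraries. With library size as a covariate the homo value was log2 −1.20 ± 0.42 (SE), adjusted p = 0.0651, and it was past the threshold in 17 of 21 alternatives. In WT the Zap70 level was 2.99 to 4.13 CPM in pre-pro B libraries and 6.92 to 9.42 CPM in pre-B libraries, while all 3 het libraries were lower in pre-B cells. Blnk had a homo effect that was higher in pre-B cells by log2 0.85 ± 0.26 (SE), adjusted p = 0.0379. This value was 0.25 with library size as a covariate and 0.49 without the 2 shallowest pre-B libraries.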

How the results depend on the processing

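Over 1557 values of the 9 genes under alternatives, 1390 kept their direction and side of the threshold, 59 lost a call, 56 gained one and 52 changed sign. The homo falls of Pik3ap1 kept their direction in every fit run. Alternatives are named by the covariate (library size, sex), tool or library set, and the cause of a change was not tested. The number of the 9 genes called changed as follows, with the percent of all genes called in the same fits in parentheses. 7 of 9 for homo against WT pre-pro B (22.4%) became 2 with library size (1.75%), 1 with sex (4.96%) and 3 with all 18 libraries (9.21%). It was 4 to 6 with 1 library left out (9.00% to 16.7%). 0 of 9 for het against WT pre-pro B (0.558%) became 1 with DESeq2 (3.86%) and 1 with all 18 libraries (187 of 12440 genes). It was 0 to 6 with 1 library left out (0% to 15.4%). None of the 9 was called for homo against het pre-pro B in any alternative (0% to 1.83%), including each fit with 1 library left out. So few genes were called there that 0 of 9 sets the members apart from no others. 1 of 9 for homo against WT pre-B (15.9%) became 6 with library size (30.3%), 2 with sex (12.1%) and 2 with cyclic loess (16.8%). It became 6 with no shallow pre-B libraries (29.9%), 3 with all 18 libraries (23.6%) and 1 to 2 with 1 library left out (9.11% to 18.1%). 1 of 9 for het against WT pre-B (6.18%) became 0 with no filter (4.11%), 0 with the replicate block (3.36%) and 4 with library size (26.3%). It was 0 to 1 with 1 library left out (2.90% to 6.52%). 0 of 9 for homo against het pre-B (1.89%) became 2 with DESeq2 (4.44%), 5 with library size (14.1%) and 1 with sex (3.15%). It became 3 with no shallow pre-B libraries (6.18%), 1 with all 18 libraries (5.31%) and 0 to 1 with 1 library left out (0.449% to 3.23%). 6 of 9 for the stages in WT (64.3%) ran from 5 to 6 with 1 library left out (58.7% to 59.7%). 7 of 9 for the stages in het (68.1%) ran from 6 to 8 with 1 library left out (62.9% to 68.9%). 6 of 9 for the stages in homo (69.1%) ran from 6 to 7 with 1 library left out (63.5% to 67.4%). 2 of 9 for the stage difference of homo (14.5%) became 1 with the replicate block (12.8%), 1 with library size (15.5%) and 5 with no shallow pre-B libraries (22.8%). It was 0 to 3 with 1 library left out (10.7% to 17.1%). 1 of 9 for the stage difference of het (5.66%) became 2 with library size (8.48%) and stayed 1 with 1 library left out (3.71% to 6.95%). With library size the 1 gene called for the stage difference of homo was Btk, and both Zap70 and Blnk lost their call there.

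Calls over all genes moved by over 1.5 times in 8 comparisons. 2730 for homo against WT pre-pro B became 213 with library size, 605 with sex and 1146 with all 18 libraries (1112 to 2059 with 1 library left out). 68 for het against WT pre-pro B became 471 with DESeq2, 251 with no filter, 119 with the replicate block, 40 with library size, 7 with sex, 166 with cyclic loess and 187 with all 18 libraries (0 to 1901 with 1 library left out). 2 for homo against het pre-pro B became 48 with DESeq2, 43 with no filter, 20 with the replicate block, 0 with library size, 0 with sex, 6 with cyclic loess and 10 with all 18 libraries (0 to 223 with 1 library left out). 1811 for homo against WT pre-B became 1125 with the replicate block, 3458 with library size, 3456 with no shallow pre-B libraries and 2940 with all 18 libraries (1055 to 2095 with 1 library left out). 705 for het against WT pre-B became 1079 with DESeq2, 383 with the replicate block, 3005 with library size, 1716 with no shallow pre-B libraries and 1583 with all 18 libraries (336 to 756 with 1 library left out). 216 for homo against het pre-B became 507 with DESeq2, 71 with the replicate block, 1604 with library size, 359 with sex, 714 with no shallow pre-B libraries and 660 with all 18 libraries (52 to 374 with 1 library left out). 1809 for the stage difference of homo became 2873 with no shallow pre-B libraries (1350 to 2157 with 1 library left out). 704 for the stage difference of het became 1172 with no shallow pre-B libraries (469 to 879 with 1 library left out).

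Some log2 differences changed sign. For homo against WT pre-pro B they were Btk 0.015 with cyclic loess. For het against WT pre-pro B they were Btk −0.0013 and Prkcb 0.0051 with library size, Prkcb 0.080 with cyclic loess, Btk −0.025 to 0.042 with 1 library left out. For homo against het pre-pro B they were Blk −0.056 with library size, Blk −0.026 with sex, Blk −0.055 to 0.11 with 1 library left out. For homo against WT pre-B they were Syk 0.0045 with DESeq2, Syk 0.0050 with RLE factors, Syk −0.21 to 0.11 and Lyn −0.33 to 0.0019 with 1 library left out. For het against WT pre-B they were Lyn −0.080 with sex, Lyn −0.0074 with cyclic loess, Lyn −0.082 with no shallow pre-B libraries, Lyn −0.078 to 0.13 with 1 library left out. For homo against het pre-B they were Syk −0.089, Blnk −0.046 and Prkcb −0.047 with library size, Syk −0.030 with sex, Syk −0.047 and Blk −0.0068 with cyclic loess, Syk −0.068, Blk −0.0012 and Prkcb −0.0049 with no shallow pre-B libraries, Blk −0.022 to 0.073, Syk −0.13 to 0.18, Blnk −0.12 to 0.41 and Prkcb −0.090 to 0.23 with 1 library left out. For the stages in WT they were Lyn −0.038 with cyclic loess. For the stages in het they were Plcg2 −0.17 with cyclic loess, Plcg2 −0.030 to 0.076 with 1 library left out. For the stages in homo they were Plcg2 −0.014 with no filter, Lyn −0.13 and Plcg2 −0.049 with library size, Zap70 0.033 and Plcg2 −0.27 with cyclic loess, Plcg2 −0.026 to 0.052 with 1 library left out. For the stage difference of homo they were Syk −0.069 and Lyn −0.18 with library size, Syk −0.0077 and Plcg2 −0.10 with cyclic loess, Lyn −0.0046 with no shallow pre-B libraries, Lyn −0.014 to 0.32 with 1 library left out. For the stage difference of het they were Syk −0.027 with cyclic loess. None of these was past the threshold in the fits reported, and of those values 1 was past it, that of Plcg2 for the stages in homo with cyclic loess (adjusted p = 0.00349).

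Whether replicate numbers pair the libraries of a genotype is not settled, and the block used joins equal numbers across genotypes. With the replicate number as a block, the calls of Pik3ap1 for het against WT pre-B (log2 −0.41) and of Blnk for the stage difference of homo (log2 0.85) were lost, and no other call of the 9 genes changed. At the genes, the number with an Ikaros region became 5 instead of 8 for homo pre-B cells without the added 10000 bases, and 2 instead of 4 (WT) and 3 instead of 5 (homo) for thymocytes with a −log10 q of at least 5. The share of all protein-coding genes was not counted under these changed rules, so that these numbers compare the 9 genes with no others. Zap70, at 11 to 134 reads per library, and the library of 1888871 counts are where depth limits the values.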

Other observations

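Read counts of most of the 9 genes differed between genotypes in other proportions than the library totals. Between WT and homo pre-pro B libraries, whose summed gene counts differed 1.48 times, the summed counts of Zap70 and Blk were 4.92 and 1.73 times higher in homo. Those of Btk were 1.503 times higher, close to the totals. Those of Prkcb, Syk, Plcg2, Lyn and Blnk were 1.29, 1.25, 1.24, 1.23 and 1.19 times higher, and those of Pik3ap1 1.08 times. Actb and B2m were at 1.06 and 1.06 times and Eef1a1 at 1.09. In pre-B cells, where the homo libraries held 0.804 times the counts of WT, Pik3ap1 was at 0.478 times, Btk at 0.639, Lyn at 0.672, Plcg2 at 0.683, Blk at 0.708, Syk at 0.728, Prkcb at 0.879 and Blnk and Zap70 at 0.961 and 0.960.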
